A study of Mus musculus with 6 samples.

Results

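Pyruvate dehydrogenase is the enzyme complex that carries pyruvate from glycolysis into the mitochondrial tricarboxylic acid cycle as acetyl-CoA. It was described from 10 genes of the complex, of its regulating enzymes and of the mitochondrial pyruvate carrier. They were among the 16244 genes of an RNA-seq comparison of WT and RORγtN275D Th17 cells. The genes were chosen by symbol and comprise 3 kinases of the complex (*Pdk1*, *Pdk2* and *Pdk3*), 4 structural subunits (*Pdha1*, *Pdhb*, *Dlat* and *Pdhx*), 1 phosphatase (*Pdp1*) and both subunits of the mitochondrial pyruvate carrier (*Mpc1* and *Mpc2*). Each of the 10 symbols matched 1 row of the table, and all 10 genes passed the minimum of 10 normalized reads on average. The study asked how N275D, a substitution in the ligand-binding domain of the Th17 transcription factor RORγt, changes transcription in inflammatory Th17 cells, and *Pdk1* is a gene it discusses. Naive CD4+ T cells from the spleen of WT mice (C57BL/6NJ in the key resources) or of RORγtN275D knockin mice made by CRISPR-Cas9 on a C57BL/6 background were stimulated through CD3 and CD28 for 3 days. The series text names IL-6, IL-1β and IL-23 as the polarizing cytokines, whereas the methods list the pathogenic condition as an addition of IL-1β and IL-23 to TGF-β, IL-6, anti-IL-4 and anti-IFN-γ. The labels give neither the age or sex of the donors nor whether the knockin allele was homozygous, and the 2 genotypes came from different mouse sources, so genotype and source cannot be told apart. Nothing in the labels says that the 3 libraries of a genotype came from separate animals or cultures, and p-values then measure only the spread between these libraries, which may be technical.

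As background, the complex has 3 catalytic components. The E1 component, built from the *Pdha1* and *Pdhb* products, decarboxylates pyruvate with thiamine pyrophosphate. The E2 component, the *Dlat* product, passes the acetyl group to coenzyme A on swinging lipoyl arms, and the E3 component, the *Dld* product, reoxidizes those arms and is held in the complex by the *Pdhx* product. Pyruvate dehydrogenase kinases phosphorylate the *Pdha1* product and switch the complex off, and the phosphatases remove the phosphate and switch it on again. *Pdk1* is a textbook target of HIF-1α, through which cells short of oxygen send pyruvate to lactate. In Th17 cells, which rely on glycolysis, the kinase has been studied as a point at which pyruvate is kept from becoming acetyl-CoA. Its symbol is shared in the literature with another kinase, 3-phosphoinositide-dependent kinase 1, which acts upstream of AKT and whose gene is *Pdpk1*.

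Library depth ranged from 17659035 to 18510878 reads on genes, and 1 read was worth 0.982 to 1.01 normalized reads. WT replicate 3 stood apart from its group, with a median distance of 0.103 on the log2 scale from the other WT libraries, against 0.0557 to 0.0755 for the other 5 libraries. Results for most of the 10 genes are therefore also given without it. Between paired libraries of a genotype, the median squared difference was 1.385 to 1.686 times that of counting error in pairs without WT replicate 3. In pairs with WT replicate 3 it was 3.831 and 3.929 times that of counting error. How far this spread is technical was not tested. The cells were checked against markers. The summed level of 5 T cell and Th17 markers (*Cd3e*, *Cd4*, *Il17a*, *Il17f* and *Il23r*) was 68851 to 72792 normalized reads in WT and 80155 to 81037 in N275D libraries. The cytokines *Il17a* and *Il17f* made up most of that sum and were called higher with *Il23r*, whereas the T cell genes *Cd3e* (-0.22, adjusted p = 0.00586 from limma) and *Cd4* (-0.27, adjusted p = 1.16e-05) were called lower. B cell markers (4 of 4 in the table) summed to 78.7 to 94.3 normalized reads in WT and 141 to 179.7 in N275D libraries. CD8 T and natural killer cell markers (3 of 4 in the table) summed to 120.1 to 142 and 172 to 179, and myeloid markers (4 of 4) to 35.3 to 42.4 and 36.1 to 46.9. Within these sums *Cd8b1* was called higher (0.58) and *Cd8a* was not called (-0.22), while *Adgre1* was called lower (-1.70) and *Cd14* higher (0.99). None of the markers that were in the table was at 0 in all 6 libraries. The part of the B cell, CD8 T, natural killer or myeloid transcripts in the differences below was not tested, and in bulk RNA fewer cells of a type and less RNA per cell cannot be told apart.

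The stretches of DNA around the start sites of the 3 kinase genes are printed because these genes encode the same activity and *Pdk1* was the only one of them called. Each holds 250 bases before a RefSeq start site and 50 bases from it on, 5′ to 3′ on the strand of the gene. Capitals mark ACGTG or GCGTG on either strand, the letters at the centre of hypoxia response elements. For *Pdk1* and *Pdk2*, 2 windows were listed, and the window nearest to the annotated start of the gene was used. The start site used for *Pdk1* lies inside the gene, whose first base is chr2:71873215. *Pdk1* lies at chr2:71872974-71873273 on the plus strand, *Pdk2* at chr11:95041322-95041621 and *Pdk3* at chrX:93832101-93832400, both on the minus strand (GRCm38.p6).
Pdk1: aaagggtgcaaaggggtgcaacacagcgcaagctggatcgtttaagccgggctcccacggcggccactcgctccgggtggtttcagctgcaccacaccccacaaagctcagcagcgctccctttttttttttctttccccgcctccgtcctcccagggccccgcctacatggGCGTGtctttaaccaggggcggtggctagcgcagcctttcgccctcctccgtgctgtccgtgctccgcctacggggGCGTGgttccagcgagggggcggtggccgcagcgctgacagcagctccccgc
Pdk2: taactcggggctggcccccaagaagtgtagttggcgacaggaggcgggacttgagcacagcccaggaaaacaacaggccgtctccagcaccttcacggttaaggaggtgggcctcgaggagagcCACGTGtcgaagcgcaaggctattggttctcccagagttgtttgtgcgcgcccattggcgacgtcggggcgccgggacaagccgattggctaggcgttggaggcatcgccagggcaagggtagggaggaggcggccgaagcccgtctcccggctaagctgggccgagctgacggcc
Pdk3: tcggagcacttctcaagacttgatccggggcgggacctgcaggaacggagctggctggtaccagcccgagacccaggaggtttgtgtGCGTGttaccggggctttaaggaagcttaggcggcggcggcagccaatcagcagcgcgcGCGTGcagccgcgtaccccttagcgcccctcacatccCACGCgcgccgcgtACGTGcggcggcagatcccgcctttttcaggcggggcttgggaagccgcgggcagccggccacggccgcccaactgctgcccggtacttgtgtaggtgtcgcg

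The *Pdk1* window held 2 matches, both GCGTG, whose first bases were at -78 and -2, counted from 0 at the start site. The *Pdk2* window held 2 matches that are the 2 strands of 1 palindrome, CACGTG, an E-box. The *Pdk3* window held 4 matches, of which 1 was ACGTG. Among 32851 RefSeq windows of 300 bases, 43.8% held at least 1 such match, 20.6% held 2 or more and 8.93% held 3 or more. Of the 9 genes with a window, 8 held a match, and *Dlat* held none. The bases G and C made up 61.0% (*Pdhb*) to 73.7% (*Mpc1*) of these 9 windows. The set of all windows was not matched for that content, so these shares are not compared further. *Pdp1* had no window. AGGTCA, the half-site bound by ROR receptors, was found on neither strand of the 9 windows and in 16.3% of all windows. These matches describe letters in short windows and are not binding sites. By ChIP-qPCR, the study reports more RORγt-N275D than WT RORγt at a HIF-1α site of the *Pdk1* locus. How the windows relate to that site was not tested, and a missing AGGTCA does not bear on it.

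Of the 10 genes, *Pdk1* and *Pdp1* were higher and *Pdha1*, *Dlat* and *Pdhx* were lower in N275D than in WT Th17 cells, and 5 did not pass the test (limma, adjusted p under 0.05). Over all 11908 genes tested, 50.9% were called, 24.7% higher and 26.1% lower, so the shares of 2 and 3 in 10 were near the background and say nothing particular about these genes as a group. The study also required a change of at least 2-fold for a call, which the calls here do not. None of the 10 reached 2-fold, which 3.59% of all genes did. The median log2 fold change of the 10 genes was 0.03, beside -0.0026 for all genes tested, and the libraries of the genotypes did not overlap in 6 of the 10, beside 57.7% of all genes tested. Without WT replicate 3, 2 of the 10 genes were again called higher and 3 lower. An exact permutation test on a single gene, two-sided, reaches at best p = 0.1 with 3 against 3 libraries, and the genes without overlap all have that value.

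**Figure D1:**
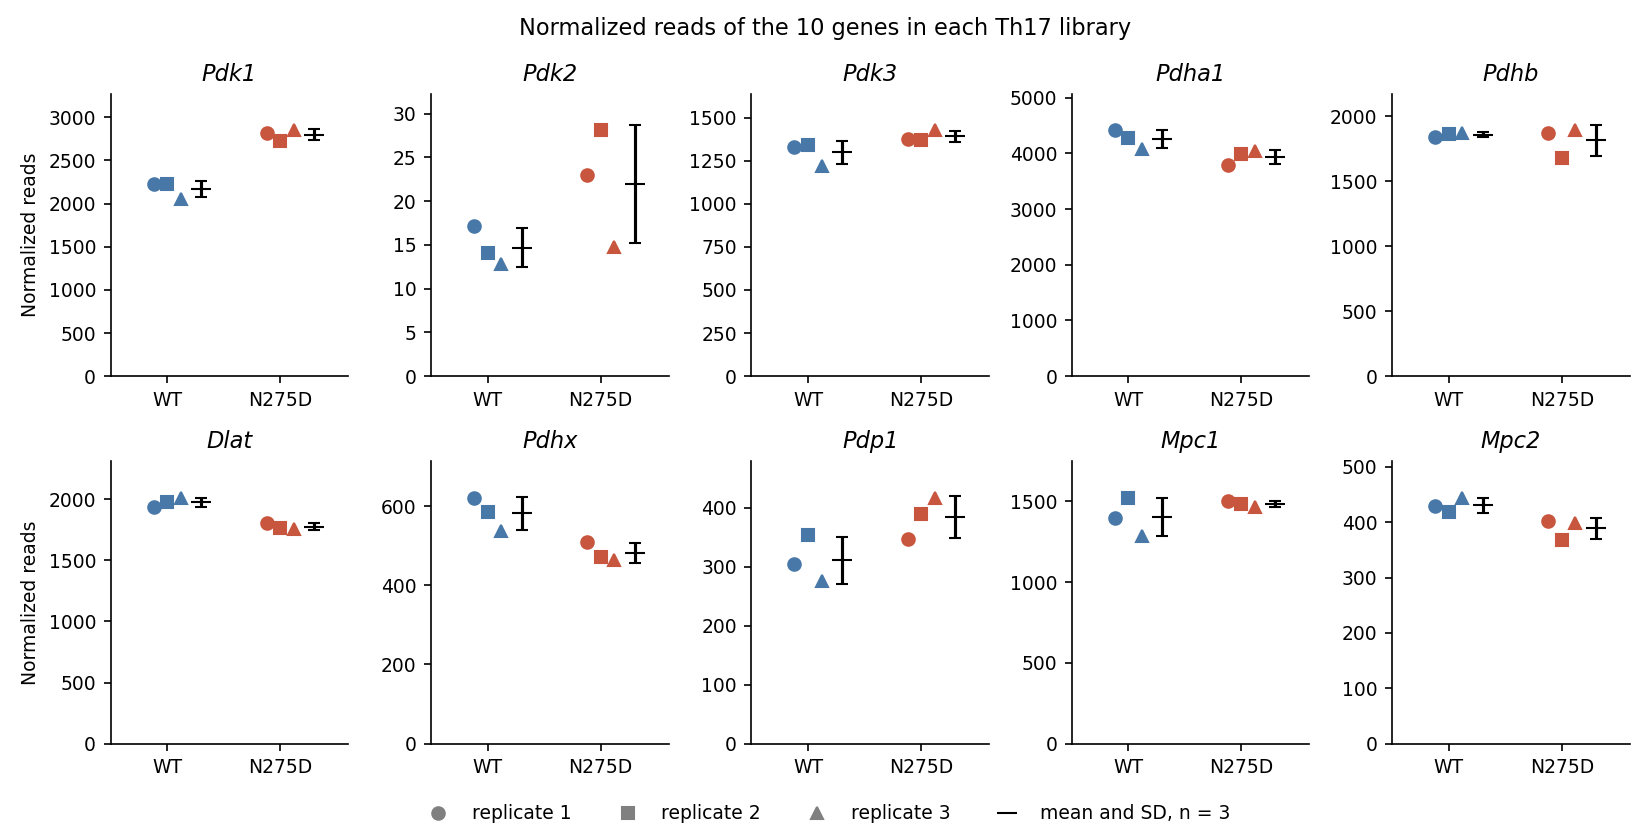
Normalized reads (vertical axes, each from 0) of the 10 genes in the 3 WT (blue) and 3 N275D (red) libraries, with a symbol for each replicate number and the mean and SD beside the points. *Pdk1* rose from between 2056 and 2229 to between 2731 and 2849, and *Pdk2* stayed below 29 normalized reads in every library.

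*Pdk1* (chr2:71873215-71903858), the kinase gene with most reads, had 2229, 2223 and 2056 normalized reads in the WT libraries and 2821, 2731 and 2849 in the N275D libraries. Every N275D library lay above every WT library, and the lowest WT value was that of replicate 3. The log2 fold change of *Pdk1* was 0.37 with a standard error of 0.04 (95% interval 0.28 to 0.46, adjusted p = 3.33e-06 from limma), a 1.29-fold difference. A larger change in either direction was seen in 21.9% of the genes tested. Without WT replicate 3, the log2 fold change of *Pdk1* was 0.33, the smallest over its 14 alternatives.

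*Pdk3* (chrX:93764616-93832150), a kinase of the same family, had 1331, 1342 and 1221 normalized reads in WT and 1378, 1368 and 1426 in N275D libraries. The genotypes did not overlap, but the gap between the highest WT and the lowest N275D library was small beside the spread within WT. The log2 fold change of *Pdk3* was 0.10 (95% interval -0.0027 to 0.20, adjusted p = 0.0969 from limma), so it was not called. Without WT replicate 3 it was 0.06 for *Pdk3*, and under quantile scaling it was 0.13 and was called (adjusted p = 0.0398).

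*Pdk2* (chr11:95026258-95041371), the most widely expressed kinase of the family in other tissues, was low, with 17.2, 14.1 and 12.8 normalized reads in WT and 23.0, 28.1 and 14.8 in N275D libraries. The genotypes overlapped, and at so few reads the counting error alone is a large part of each value. Its log2 fold change of 0.51 had an interval from -0.07 to 1.10 (adjusted p = 0.132 from limma), so that neither no change nor a doubling of *Pdk2* could be told from these libraries. Without WT replicate 3 the log2 fold change of *Pdk2* was 0.43. Only without N275D replicate 3 was *Pdk2* called, at a log2 fold change of 0.76 (adjusted p = 0.0390). *Pdk4*, the kinase that fasting induces in muscle and liver, had 0 reads in the 3 WT libraries and N275D replicate 2, and 2 reads each in N275D replicates 1 and 3. These values are at or under a floor of 3 reads per library, so no fold is given.

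Among the subunits, *Pdha1* (chrX:160122219-160138430), which carries the serines that the kinases phosphorylate, had 4414, 4281 and 4087 normalized reads in WT and 3784, 3987 and 4036 in N275D libraries. No library of one genotype reached those of the other, although WT replicate 3 and N275D replicate 3 lay close together. *Pdha1* had a log2 fold change of -0.11 with a standard error of 0.04 (95% interval -0.20 to -0.03, adjusted p = 0.0279 from limma). This call was lost in 7 of 14 alternatives and held without WT replicate 3 (-0.14). Under quantile scaling *Pdha1* was at -0.05 (adjusted p = 0.378), and its call was also lost in limma without a trend (0.106), with a replicate block (0.0556) and without WT replicate 1 (adjusted p = 0.125), WT replicate 2 (0.0636), N275D replicate 1 (0.152) or N275D replicate 2 (0.0582). The gene overlaps *Map3k15* on the opposite strand, and reads of both genes are told apart only where counting used the strand.

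*Pdhb* (chr14:8165991-8173303), the other E1 subunit, had 1837, 1864 and 1874 normalized reads in WT and 1871, 1680.4 and 1891 in N275D libraries. Its genotypes overlapped, with N275D replicate 2 below all other libraries. Its log2 fold change was -0.04 (95% interval -0.14 to 0.07, adjusted p = 0.550 from limma). The direction of *Pdhb* turned to 0.02 under quantile scaling and without N275D replicate 2, and it was called in neither.

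*Dlat* (chr9:50634633-50659780), which encodes the acetyltransferase core, had 1936, 1975 and 2009.7 normalized reads in WT and 1808, 1759.6 and 1756 in N275D libraries. Every N275D library was below every WT library. *Dlat* fell by 0.15 on the log2 scale, with a standard error of 0.04 (95% interval -0.24 to -0.07, adjusted p = 0.00528 from limma), and under quantile scaling *Dlat* was at -0.10 and was not called (adjusted p = 0.0609).

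*Pdhx* (chr2:103021055-103073513), which encodes the protein that binds E3, had the largest fall of the 10 genes, from 621, 585 and 538 normalized reads in WT to 510.1, 472 and 464 in N275D libraries. The genotypes did not overlap, and WT replicate 3 was the WT library nearest to the N275D libraries. On the log2 scale *Pdhx* changed by -0.27 with a standard error of 0.07 (95% interval -0.41 to -0.13, adjusted p = 0.00298 from limma). It was called in all 14 alternatives, between -0.32 (without WT replicate 3) and -0.22.

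*Pdp1* (chr4:11958183-11966450), the calcium-stimulated phosphatase that reactivates the complex, had 304, 353 and 275.03 normalized reads in WT and 346, 389 and 417 in N275D libraries. WT replicate 2 lay above N275D replicate 1, so the genotypes overlapped, and the lowest value was again that of WT replicate 3. *Pdp1* rose by 0.31 on the log2 scale, with a standard error of 0.09 (95% interval 0.12 to 0.50, adjusted p = 0.00978 from limma). Without WT replicate 3 the log2 fold change of *Pdp1* was 0.23 (adjusted p = 0.0232), and the call was lost without N275D replicate 3 (adjusted p = 0.0642) and in limma without a trend (adjusted p = 0.0653). The transcripts of a kinase and of an opposing phosphatase were thus both higher in N275D libraries.

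The pyruvate carrier, which brings pyruvate across the inner mitochondrial membrane, is formed by the *Mpc1* and *Mpc2* products together. *Mpc1* (chr17:8283787-8297667) had 1395, 1522 and 1289 normalized reads in WT and 1505, 1483 and 1469 in N275D libraries. The N275D libraries lay within the range of the WT libraries, and the log2 fold change of *Mpc1* was 0.09 (95% interval -0.03 to 0.20, adjusted p = 0.199 from limma). Without WT replicate 2, *Mpc1* was called at 0.15 (adjusted p = 0.0296), and without WT replicate 3 it was 0.03. *Mpc2* (chr1:165461260-165481218) had 430.0, 418 and 444 normalized reads in WT and 401, 367 and 399 in N275D libraries. The genotypes of *Mpc2* did not overlap, but its log2 fold change of -0.15 (95% interval -0.28 to -0.01) did not pass the test (adjusted p = 0.0708 from limma). Under quantile scaling *Mpc2* was -0.19 and was called (adjusted p = 0.0218), and without WT replicate 3 it was -0.12. In the annotation *Pdk2* and *Mpc1* each overlap a noncoding gene on the opposite strand. The libraries were strand-specific, but whether counting used the strand is not given in the sources used here. *Mpc2* overlaps a gene model on its own strand, which strand cannot separate, and the values of these genes are uncertain to that extent.

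**Figure D2:**
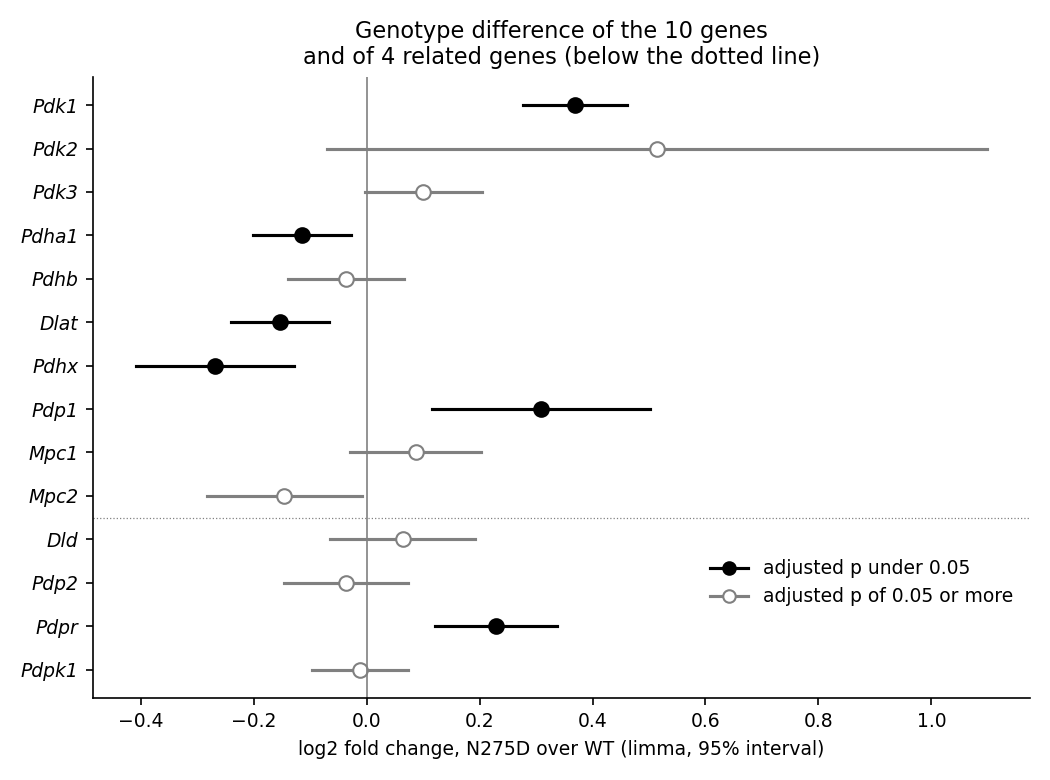
Log2 fold changes of N275D over WT (horizontal axis) with 95% intervals from limma, for the 10 genes and, below the dotted line, *Dld*, *Pdp2*, *Pdpr* and *Pdpk1*; filled points have an adjusted p under 0.05. *Pdk1* (0.37), *Pdp1* (0.31) and *Pdpr* (0.23) lie to the right, *Pdhx* (-0.27), *Dlat* (-0.15) and *Pdha1* (-0.11) to the left, and the interval of *Pdk2* is the widest.

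The remaining genes of the complex were also measured. *Dld*, the E3 subunit shared with other 2-oxoacid dehydrogenases, had 2539, 2420.0 and 2058 normalized reads in WT and 2361, 2472 and 2475 in N275D libraries. The genotypes of *Dld* overlapped, with WT replicate 3 the lowest, and its log2 fold change was 0.06 (95% interval -0.06 to 0.19, adjusted p = 0.400 from limma), which turned to -0.03 without WT replicate 3. *Pdp2*, the other catalytic phosphatase subunit, had 780.2, 772 and 831 normalized reads in WT and 768, 775 and 780.2 in N275D libraries (log2 fold change -0.04, adjusted p = 0.590 from limma). *Pdpr*, a regulatory subunit that holds the phosphatase back, had 825, 897 and 830.0 normalized reads in WT and 1007, 981 and 1001 in N275D libraries. Every N275D library exceeded every WT library for *Pdpr*, and it rose by 0.23 on the log2 scale (standard error 0.05, adjusted p = 0.00141 from limma). *Pdha2* and *Mpc1l* were not analysed here. For *Pdpk1*, the kinase with which *Pdk1* shares a name, the values were 2456, 2484 and 2494 normalized reads in WT and 2465, 2377 and 2534 in N275D libraries. The genotypes of *Pdpk1* overlapped, and its log2 fold change was -0.01 (95% interval -0.10 to 0.07, adjusted p = 0.829 from limma), with the opposite sign under quantile scaling (0.06) and without N275D replicate 2 (0.01).

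Levels were compared between genes as normalized reads per kilobase of exon. In WT cells *Pdha1* was highest at 1496 ± 57.7 (SD, n = 3), followed by *Pdhb* at 1228 ± 12.7, *Mpc1* at 954 ± 79.5, *Pdk3* at 614 ± 31.6 and *Dlat* at 489 ± 9.16. *Mpc2* at 420.0 ± 12.9 and *Pdk1* at 418 ± 18.9 overlapped in their libraries and could not be ordered. *Pdhx* at 148 ± 10.5, *Pdp1* at 68.9 ± 8.75 and *Pdk2* at 6.54 ± 1.00 were lowest, and no other neighbours overlapped. In N275D cells *Pdk1* stood at 540.1 ± 11.9 reads per kilobase, above *Dlat* at 439.8 ± 7.19 and *Mpc2* at 379.7 ± 18.6 in every library, and the order of the other genes was that of WT. The lengths are unions of annotated exons (5185 bases for *Pdk1* and 2115 for *Pdk3*), and the place of *Pdk1* below *Pdk3* depends on them, since *Pdk1* had more reads.

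**Figure D3:**
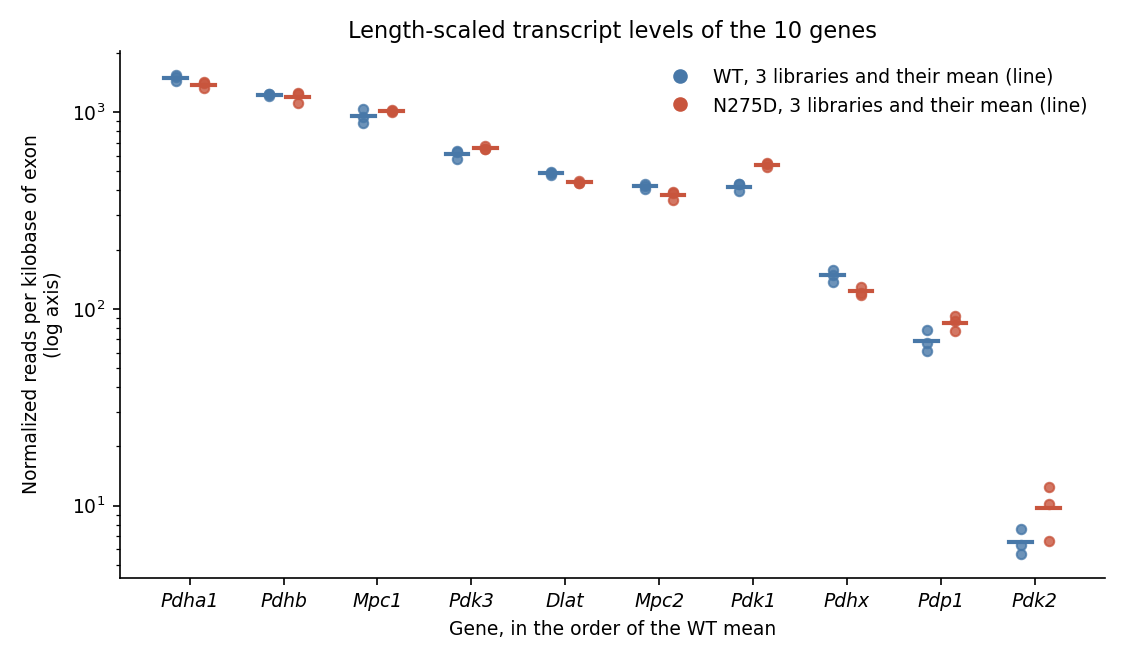
Normalized reads per kilobase of exon on a log axis for the 10 genes in the order of the WT mean, with 3 libraries as points and their mean as a line (WT blue, N275D red). *Pdk1* moved from 418 in WT to 540.1 in N275D cells, above *Dlat* and *Mpc2*, and *Pdk2* lay below the other kinases in all libraries.

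Ratios between genes of the same library do not depend on how libraries are scaled to each other. Of the reads per kilobase on the 3 kinases, *Pdk1* made up 40.3%, 40.1% and 40.5% in the WT libraries and 45.1%, 44.4% and 44.7% in the N275D libraries. *Pdk3* made up 59.1% ± 0.203 (SD, n = 3) in WT and 54.5% ± 0.396 in N275D cells, and *Pdk2* stayed between 0.536% and 1.05%. The kinase transcripts were thus mostly those of *Pdk1* and *Pdk3* in both genotypes, with a larger part from *Pdk1* in N275D cells.

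The log2 ratio of *Pdk1* to *Pdk3* reads was 0.74 ± 0.01 in WT and 1.01 ± 0.02 in N275D libraries (SD, n = 3 each), with no overlap. WT replicate 3, which was low for both kinases, had a ratio of 0.75, next to the 0.74 and 0.73 of the other WT libraries. The log2 ratio of *Pdk1* to *Pdha1* reads was -0.97 ± 0.03 in WT and -0.49 ± 0.06 in N275D libraries (SD, n = 3 each). The summed kinases over the mean of the E1 subunits, both per kilobase, had a log2 ratio of -0.37, -0.35 and -0.45 in the WT libraries and -0.09, -0.08 and -0.12 in the N275D libraries. The N275D mean exceeded the WT mean by 0.30, and all N275D libraries lay above all WT libraries. No test is given for these ratios, since the genes were chosen with results of these libraries known.

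**Figure D4:**
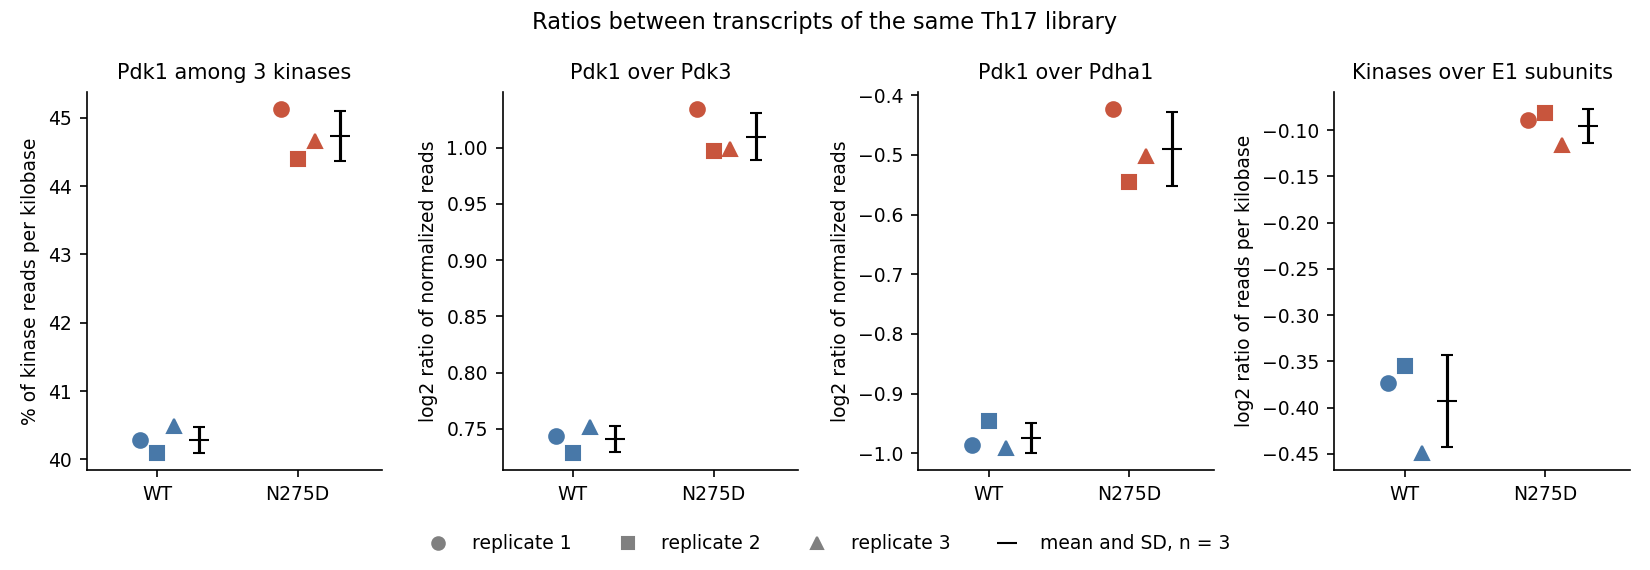
Ratios within each library for 3 WT (blue) and 3 N275D (red) libraries, with the mean and SD beside the points: the share of *Pdk1* among the 3 kinases in percent of reads per kilobase, and log2 ratios of *Pdk1* to *Pdk3*, of *Pdk1* to *Pdha1* and of the summed kinases to the mean E1 subunit. The vertical axes do not start at 0. In each panel the genotypes are apart, with the share of *Pdk1* at 40.1% to 40.5% in WT and 44.4% to 45.1% in N275D libraries.

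Other pairs were compared in the same way. The log2 ratio of *Pdp1* to *Pdp2* reads, the calcium-stimulated over the other phosphatase, was -1.36 ± 0.23 in WT and -1.02 ± 0.12 in N275D libraries (SD, n = 3 each), and the libraries overlapped. Between the E1 subunits, the log2 ratio of *Pdhb* to *Pdha1* reads was -1.20 ± 0.07 and -1.12 ± 0.12, also with overlap. The log2 ratio of *Mpc2* to *Mpc1* reads was -1.70 ± 0.16 in WT and -1.93 ± 0.07 in N275D libraries. The libraries did not overlap, but WT replicate 2 (-1.87) and N275D replicate 3 (-1.88) nearly touched beside the spread within WT. Neither gene was called.

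Lists of genes around the complex were read from the same fit, in which 50.9% of all genes were called, 24.7% higher and 26.1% lower, and no list is read as standing apart from that. The cofactors of the complex are lipoate, which is attached to the *Dlat* and *Pdhx* products, and thiamine pyrophosphate, bound by E1. Of 12 genes of lipoate and thiamine supply, 5 were called lower and 7 were not called, with a median log2 fold change of -0.21. *Slc19a2*, a thiamine transporter of the plasma membrane, had the largest fall, from 1087, 1042 and 1055 normalized reads in WT to 753, 714 and 755 in N275D libraries (log2 fold change -0.52, standard error 0.05, adjusted p = 3.90e-07 from limma).

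Pyruvate has other fates than the complex. Of 12 genes tested on those routes, 5 were called higher, 2 lower and 5 were not called, beside 50.9% of all genes called. The median log2 fold change of these 12 genes was 0.05. *Me1*, the cytosolic malic enzyme that makes pyruvate from malate, rose from 16.1, 13.1 and 12.8 to 42.9, 42.1 and 44.4 normalized reads, by 1.56 on the log2 scale (standard error 0.21, adjusted p = 1.21e-05 from limma). *Ldhb*, a lactate dehydrogenase subunit, had the largest fall on that list, from 630.3 ± 42.6 to 488 ± 18.9 normalized reads (SD, n = 3 each, log2 fold change -0.37, adjusted p = 0.000159 from limma). *Ldha*, the other lactate dehydrogenase gene on the list, named after its values were seen, had many more reads. Its values were 80907, 83532 and 77746 normalized reads in WT and 82222, 80398 and 80101 in N275D libraries. *Ldha* was not called (log2 fold change 0.0037, adjusted p = 0.934 from limma). Further genes on the list were also named after their values were seen. The transporter gene *Slc16a3* was called higher (0.72, adjusted p = 7.53e-11 from limma) and the transporter gene *Slc16a1* lower (-0.17, adjusted p = 0.00136 from limma). *Pkm* was called higher (0.14, adjusted p = 0.00106 from limma). The calls of *Slc16a1* and *Pkm* were lost under quantile scaling. Among 7 genes that use or supply acetyl-CoA, *Crat*, which transfers acetyl groups to carnitine, was called higher (log2 fold change 0.23, adjusted p = 0.0189 from limma) and *Acly*, which releases acetyl-CoA from citrate in the cytosol, lower (-0.16, adjusted p = 0.000692 from limma). The call of *Crat* was lost under quantile scaling (adjusted p = 0.0979) and without WT replicate 3 (0.0512), N275D replicate 2 (0.0523) or N275D replicate 3 (0.0726). The other 5 of these genes were not called.

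**Figure D5:**
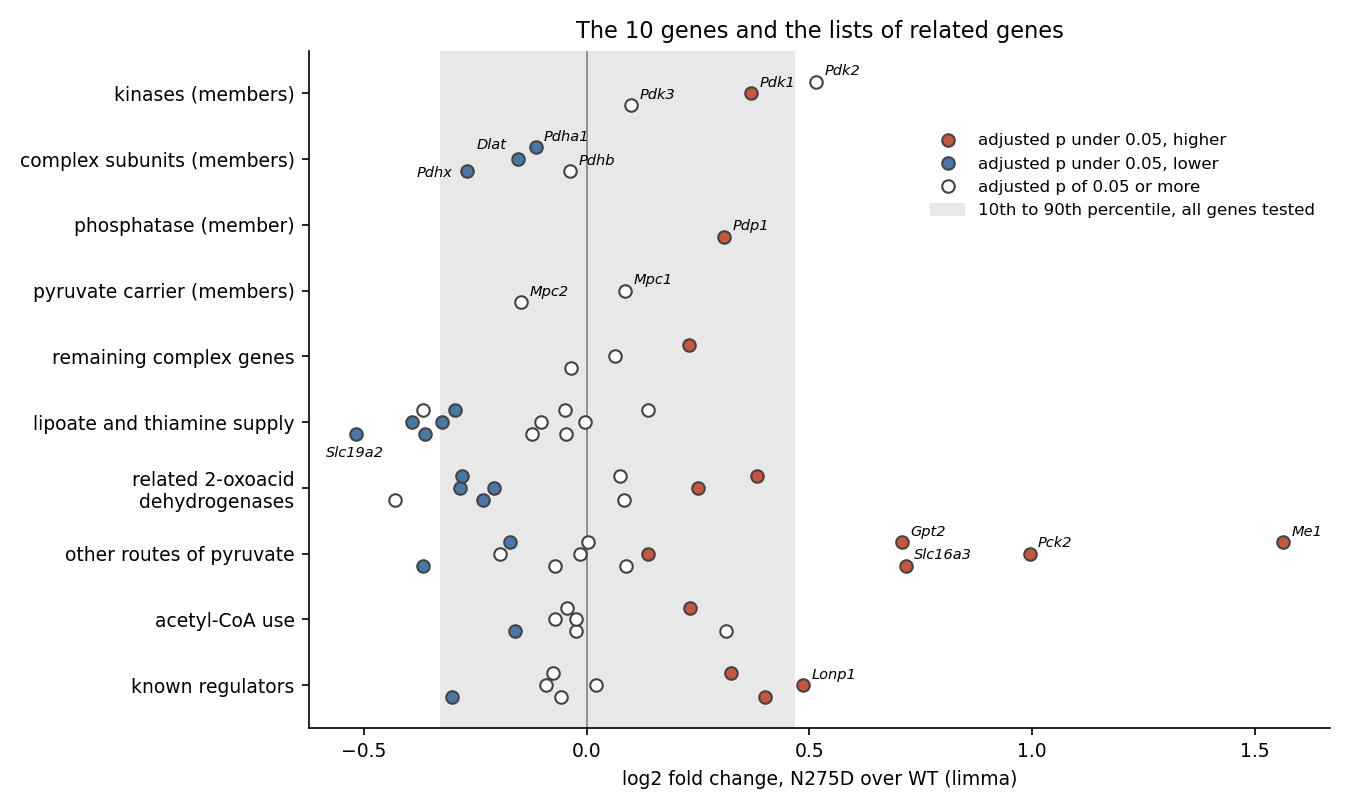
Log2 fold changes of N275D over WT (horizontal axis) for the 10 genes and 6 lists of related genes, 1 point a gene, filled where the adjusted p from limma is under 0.05; the grey band spans the 10th to 90th percentile of all genes tested (-0.33 to 0.47). Of the 10 genes *Pdk2* alone lies outside the band, *Me1* (1.56) is farthest to the right, and *Slc19a2* (-0.52) is farthest to the left.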

How the data were processed

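RNA-seq libraries of WT (n = 3) and RORγtN275D (n = 3) Th17 cells were grouped, and numbered as replicates, by their labels. According to the study's methods, the authors used STAR for alignment (mm10) of trimmed reads, featureCounts for counting and DESeq2 for testing; tool versions are not given in the sources used here. The deposited table gives a signal for each of 16244 genes and each library: normalized reads, which the authors obtained by scaling a library's reads with a single factor. Divided by a library's smallest value above 0, 100% of its values came out whole within 1e-06. The authors' deposited log2 fold changes, q-values, transcript numbers and whole-number group averages (treated as a score) were not used.

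Genes with a mean of at least 10 were tested with limma (version 3.58.1, R 4.3.3; trended prior with 12.0 degrees of freedom, no block) on log2(normalized reads + 1), on which fold changes of low genes are understated. P-values were two-sided and adjusted by Benjamini-Hochberg over 11908 genes; a call is an adjusted p under 0.05. The script was tested on simulated data. Coordinates and promoters are from RefSeq (GRCm38.p6, the build mm10), and exon lengths from GENCODE M21 (union of basic protein-coding exons).

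The 10 genes and the lists were chosen with earlier results of these data known. All 10 genes, *Pdk4*, *Dld*, *Pdp2*, *Pdpr* and *Pdpk1* were to be named, and from each other list the called gene with the largest rise and the one with the largest fall. Alternatives were pseudocounts of 0.1 and 10, no filter beyond a mean above 0, a minimum mean of 100, scaling by TMM or quantiles, no trend, a replicate block and each library left out. Some genes of the lists are not reported here and were left out of the list counts.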

Additional observations from a re-analysis of the deposited data

How the results depend on the processing

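*Pdk1* was called higher and *Pdhx* lower in all 14 alternatives, *Pdk1* at log2 fold changes of 0.33 to 0.43. *Dlat* kept its call in 13, *Pdp1* in 12 and *Pdha1* in 7 of 14, and no gene of the 10 that was called reversed. Over the alternatives 1 to 3 of the 10 genes were called higher and 2 or 3 lower, and limma without a trend was the setting with 1 higher. The calls at 2-fold over all genes, 427 as reported, were 259 with a pseudocount of 10, 703 with all genes with a mean above 0 and 162 with a filter at a mean of 100. TMM scaling moved the median of all genes by 0.00138 and quantile scaling by -0.0155 on the log2 scale. Under quantile scaling 3 of the 10 genes were called higher and 2 lower. The difference of the kinase to E1 ratio was 0.37 when reads were not divided by length, and 0.27 to 0.32 when a library was left out. With the replicate number as a block, 5727 genes were called, against 6056 without it, and 2 of the 10 genes higher and 2 lower, *Pdha1* losing its call (adjusted p = 0.0556). Deviations of same-numbered libraries correlated at -0.0455, 0.0407 and -0.0828, so the numbers were not taken to pair the samples. The count tests of edgeR and DESeq2, planned as alternatives, were not run. *Pdk2* and *Pdk4* are limited by depth.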

Other observations

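The complexes that resemble pyruvate dehydrogenase were read from the same fit, beside 50.9% of all genes called. Of 9 genes of related 2-oxoacid dehydrogenases, 2 were called higher, 4 lower and 3 were not called, with a median log2 fold change of -0.21. In the branched-chain complex, which breaks down leucine, isoleucine and valine and is likewise switched off by a kinase, *Ppm1k*, its phosphatase, rose from 268, 233 and 219 to 337, 281 and 322 normalized reads (log2 fold change 0.38, adjusted p = 0.00225 from limma). *Dbt*, its acyltransferase core, had the largest fall of the called genes on that list, with a log2 fold change of -0.28 (adjusted p = 0.00103 from limma). *Bckdk*, its kinase, named after its values were seen, was lower, from 1110.3, 1083 and 1172 to 1015, 941 and 911 normalized reads (log2 fold change -0.23, adjusted p = 0.00193 from limma). The genotypes of *Ppm1k* and *Bckdk* did not overlap. For the branched-chain complex the phosphatase transcript was thus higher and the kinase transcript lower, whereas for pyruvate dehydrogenase *Pdk1* and *Pdp1* were both higher. The call of *Pdp1* was lost in 2 of 14 alternatives. *Pdp2*, the other catalytic phosphatase subunit, was not called (-0.04, adjusted p = 0.590 from limma). *Ogdh* (-0.21, adjusted p = 0.000254 from limma) and *Dlst* (-0.28, adjusted p = 8.88e-06 from limma), the 2-oxoglutarate dehydrogenase subunits, also named after their values were seen, were lower. *Bckdha*, an E1 subunit of the branched-chain complex, also named after its values were seen, was higher, from 519.8, 555 and 569.7 to 659.9, 643 and 651 normalized reads (log2 fold change 0.25, adjusted p = 0.00172 from limma).

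Of 10 genes that act on the complex or on its kinase genes, 8 were tested, of which 3 were called higher and 1 lower, a share near the 50.9% called over all genes. *Lonp1*, a protease of the mitochondrial matrix, rose most, from 5738, 5870 and 6274 to 8417, 8375 and 8251 normalized reads (log2 fold change 0.49, adjusted p = 3.50e-08 from limma). *Foxo3*, a forkhead transcription factor, fell most, with a log2 fold change of -0.30 (adjusted p = 5.89e-05 from limma). *Foxo1*, another forkhead gene on the list, named after its values were seen, was higher (0.40, adjusted p = 5.89e-06 from limma). On the list of other routes of pyruvate, *Pck2* and *Gpt2*, both named after their values were seen, were higher in every N275D library than in every WT library. The log2 fold change was 0.99 for *Pck2* (adjusted p = 9.29e-11 from limma), whose product does not itself act on pyruvate. It was 0.71 for *Gpt2* (adjusted p = 1.91e-07 from limma).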
